A study of Chlamydomonas reinhardtii with 5 samples.

Results

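The genes described here serve sulfate uptake, the release of sulfate from organic esters and the synthesis of cysteine in *Chlamydomonas reinhardtii*. They are 6 of the 17742 genes counted: the sulfate transporter genes *SLT1* (CHLRE_12g502600v5), *SLT2* (CHLRE_10g445000v5) and *SULTR2* (CHLRE_17g723350v5), the arylsulfatase genes *ARS1* (CHLRE_16g671400v5) and *ARS2* (CHLRE_16g671350v5), and the cysteine synthase gene *CrOASTL2* (CHLRE_16g664250v5). They were taken by locus tag from a list that was chosen by dose, because *SLT1* and *SULTR2* had lower counts and *CrOASTL2* had higher counts at 50 Gy than at 6 Gy in these libraries. The dose differences are therefore given as a description, without a test. All groups were wild-type cells of strain CC-125, grown in tris-acetate-phosphate (TAP) medium under constant light. The mock received 0 Gy. XR6 received X-rays of 6 Gy within 22.2 min, with a tube current of 1 mA, and XR50 received 50 Gy within 8.1 min, with 10 mA, both at a voltage of 160 kV. GR6 and GR50 received γ-rays of 6 and 50 Gy, each over 1 h. X-irradiated cells came from smaller cultures and had been harvested, resuspended in TAP medium and concentrated into small tubes. γ-irradiated cells came from larger cultures in flasks and stayed at culture density in larger tubes. The methods describe no resuspension for the γ-irradiated cells. The handling of the mock and the time from irradiation to RNA harvest are not given in the sources used here.

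Sulfate is the main sulfur source of this alga. It enters the cell through proton-coupled carriers of the SULTR type and sodium-coupled carriers of the SLT type, is reduced to sulfide in the chloroplast, and is joined to O-acetylserine by cysteine synthase (O-acetylserine(thiol)lyase). Cysteine then feeds proteins, methionine and the antioxidant glutathione. When sulfate runs out, the cells are known to raise the transcripts of *SLT1*, *SLT2*, *SULTR2* and the arylsulfatases, which are secreted and split sulfate from organic esters outside the cell.

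Each group held 1 library, with between 18364833 and 20330055 reads on genes, and 49.3% to 55.9% of the listed reads were counted on genes. There is thus no replicate error, and differences from the mock could not be tested. Levels are given as CPM, which are counts scaled to the depth of the library, here with TMM factors from edgeR. Each ratio is given on the log2 scale with a 95% interval by the exact Clopper-Pearson method, computed from its 2 counts. Such an interval covers the counting error alone and not the variation between cultures or libraries. Copies made by PCR were counted without molecular identifiers, so that even the counting error may be understated. Only 4 members averaged 10 or more counts over the libraries, namely the transporters and *CrOASTL2*. The 2 arylsulfatase genes did not, and counts of members past a 2-fold difference refer to the 4. CPM values are not divided by transcript length and are compared between libraries, not between genes.

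The sulfate transporters had their highest level in GR6. *SLT1*, a sodium-coupled sulfate carrier of the plasma membrane, lies on chromosome 12 from 2807687 to 2813938 in the NCBI v5.5 genome. It was counted 327 times in the mock, 354 times in XR6, 165 times in XR50, 2177 times in GR6 and 643 times in GR50, corresponding to 18.1, 17.8, 8.45, 113.1 and 31.9 CPM. The XR6 level lay within the counting error of the mock, XR50 was the lowest library, and both γ-irradiated libraries were above the other 3. *SLT2*, a carrier of the same type, lies on chromosome 10 from 3489763 to 3495854. The counts were 577 (mock), 558 (XR6), 400 (XR50), 4040 (GR6) and 1361 (GR50), or 31.9, 28.0, 20.5, 210.0 and 67.6 CPM. The order was that of *SLT1*, with XR50 at the bottom and GR6 at the top. *SULTR2*, a proton-coupled sulfate carrier, lies on chromosome 17 from 3324347 to 3329585. The counts were 1029 (mock), 1461 (XR6), 712 (XR50), 7112 (GR6) and 3540 (GR50), or 56.9, 73.4, 36.5, 369.6 and 175.7 CPM. Here XR6 was slightly above the mock, and the rest of the order was the same.

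**Figure D1:**
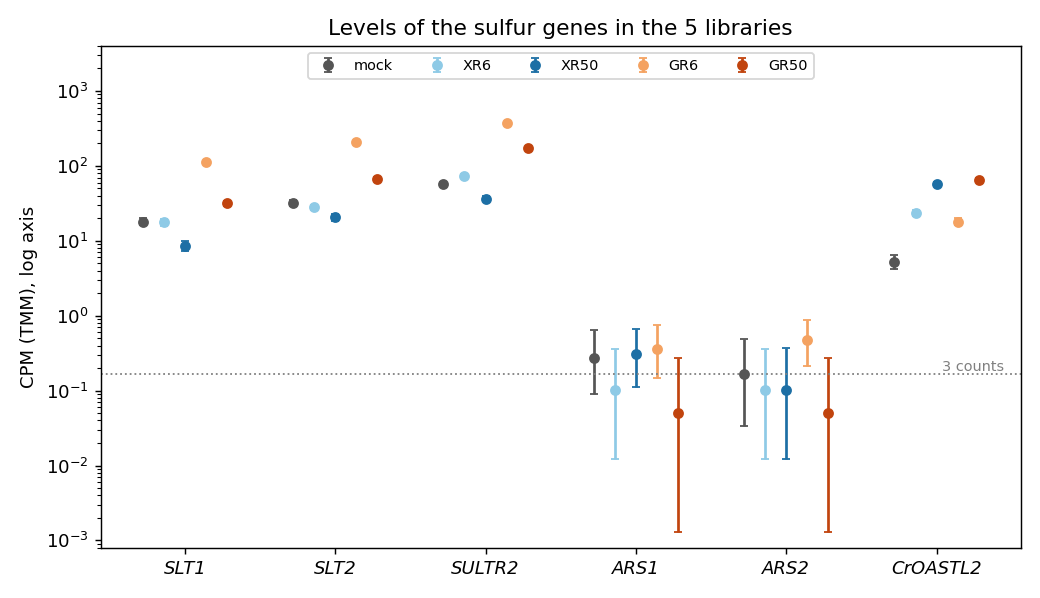
Level of each member in the 5 libraries, as CPM on a log axis. Points are single libraries and bars are exact Poisson 95% intervals of the count. The dotted line marks 3 counts in the mock (0.166 CPM). The transporters peak in GR6, *CrOASTL2* is highest in GR50 and XR50, and the arylsulfatases stay near the line.

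*CrOASTL2* followed another order, that of dose. The gene encodes a cysteine synthase and lies on chromosome 16 from 2961143 to 2963947. It was counted 95 times in the mock, 465 times in XR6, 1135 times in XR50, 346 times in GR6 and 1300 times in GR50, or 5.25, 23.4, 58.1, 18.0 and 64.5 CPM. All irradiated libraries were above the mock, both 50 Gy libraries were above both 6 Gy libraries, and GR6, where the transporters peaked, was its lowest irradiated library.

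The arylsulfatase genes were close to the detection limit in all 5 libraries. *ARS1* and *ARS2*, which encode the secreted arylsulfatases, lie side by side on chromosome 16, from 4375689 to 4382087 and from 4382814 to 4388178, with 726 bp between them. *ARS1* had counts of 5 (mock), 2 (XR6), 6 (XR50), 7 (GR6) and 1 (GR50). *ARS2* had 3, 2, 2, 9 and 1 counts in the same order. The genes are of the same kind, and whether reads shared between them were set aside as not unique was not tested, so that these counts are uncertain. Their summed counts were 8 (mock), 4 (XR6), 8 (XR50), 16 (GR6) and 2 (GR50). Against the mock, the sum had a log2 ratio of 0.91 in GR6, with an interval of -0.40 to 2.34, so that a difference was not detectable at this depth. The sum in GR6 was above that in XR6 (2.05, interval 0.42 to 4.09) and above that in GR50, since the ratio of GR50 to GR6 was -3.07 (-6.23 to -0.98). In GR6, where their sum was highest, the arylsulfatases had 0.832 CPM together, with an exact Poisson 95% interval of 9.15 to 26.0 for their 16 reads.

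Against the mock, the transporters were parted by radiation type. In GR6, the log2 ratio was 2.65 for *SLT1* (interval 2.48 to 2.82), 2.72 for *SLT2* (2.59 to 2.85) and 2.70 for *SULTR2* (2.61 to 2.80), which is 6.26-, 6.58- and 6.50-fold. The 3 intervals overlap one another, although the genes lie on different chromosomes and *SULTR2* is a carrier of another type. Ordered from the highest ratio, these were places 96, 88 and 89 of the 13976 genes that averaged 10 or more counts. In GR50, the ratios were lower and spread further apart, with 0.82 (0.63 to 1.02) for *SLT1*, 1.08 (0.94 to 1.23) for *SLT2* and 1.63 (1.53 to 1.73) for *SULTR2*. In XR50, all 3 transporters were below the mock, with -1.10 (-1.38 to -0.82) for *SLT1*, -0.64 (-0.83 to -0.45) for *SLT2* and -0.64 (-0.78 to -0.50) for *SULTR2*. In XR6, *SLT1* had -0.02 (-0.24 to 0.20) and could not be told from the mock. *SLT2* had -0.19 (-0.36 to -0.01), a direction that depended on the scaling, with 0.02 when library totals replaced TMM. *SULTR2* had 0.37 (0.25 to 0.49). The mock library enters all of these ratios, so that an error of that library would shift them together.

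*CrOASTL2* was above the mock after either radiation. The paper had already listed it among genes that changed over 2-fold after both radiations in this RNA-Seq experiment. Its ratios and places below therefore restate a known result. The log2 ratio was 2.15 (1.83 to 2.49) in XR6, 3.47 (3.17 to 3.79) in XR50, 1.78 (1.44 to 2.12) in GR6 and 3.62 (3.32 to 3.94) in GR50, or 4.45-, 11.1-, 3.42- and 12.3-fold. It was at place 162 of 13976 genes from the highest in XR6, 106 of 13976 in XR50, 280 of 13976 in GR6 and 170 of 13975 in GR50.

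The place of *CrOASTL2* in the following counts was known beforehand from the paper. Of the 4 members, all 4 were more than 2-fold above the mock in GR6, where 6.72% of all genes were above and 4.10% below. In GR50, 3 members were above and 0 below, beside 13.4% and 7.51% of all genes. In XR6, 1 member (*CrOASTL2*) was above and 0 below, beside 7.36% and 3.26%. In XR50, 1 member (*CrOASTL2*) was above and 1 (*SLT1*) below, beside 5.32% and 3.05%. The median log2 ratio of the 4 members was 2.67 in GR6, 1.36 in GR50, 0.17 in XR6 and -0.64 in XR50, whereas that of all genes lay between -0.03 and 0.00.

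**Figure D2:**
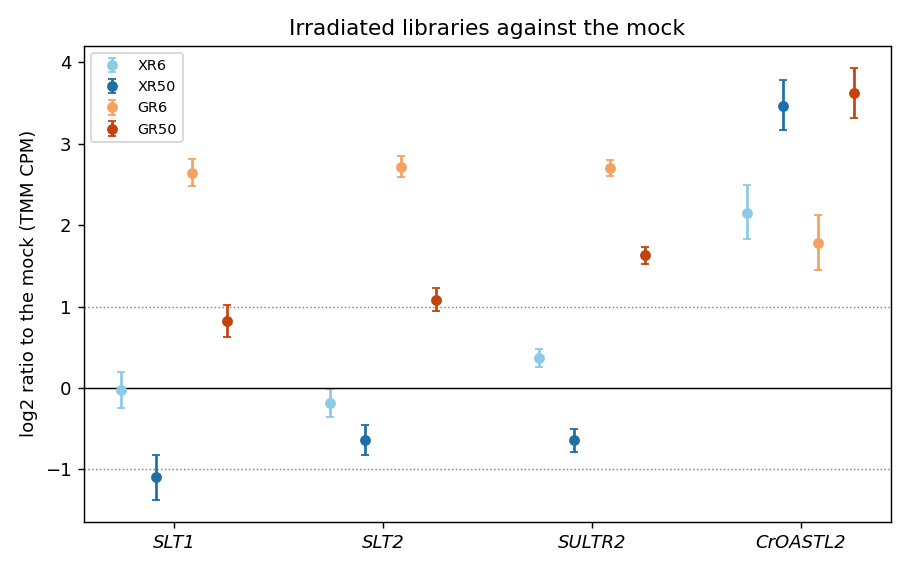
Log2 ratio of TMM-scaled CPM to the mock for the transporters and *CrOASTL2*. Points are single libraries against the mock, bars are exact 95% intervals of the counts, and dotted lines mark 2-fold. In GR6 the transporters lie between 2.65 and 2.72, in XR50 between -1.10 and -0.64, and *CrOASTL2* is above 0 in every irradiated library.

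The effect of radiation type was tested among the 4 irradiated libraries. The stated reason for choosing the genes was their dose pattern, but results of both contrasts were known when the list was made. Both contrasts also use the same 4 libraries. A high count in GR6 enters the γ-ray dose step, by which genes were chosen, as well as the type effect. The p-values are therefore not independent of the choice and are given as a description. The additive model had dose and type as terms, was fitted to 14112 genes and took its error from their interaction, with 1 residual degree of freedom. The variance of each gene was drawn wholly from the trend over all genes, so that the interaction of a single gene carried no weight in its own test. With 1 library per group, the p-values do not measure the variation between repeated exposures. Levels after γ-irradiation were higher by 2.30 for *SLT1* (standard error 0.344, adjusted p = 2.82e-09), 2.32 for *SLT2* (0.330, adjusted p = 3.49e-10) and 2.30 for *SULTR2* (0.312, adjusted p = 3.58e-11) on the log2 scale, all from the quasi-likelihood test of edgeR, adjusted over all genes tested by Benjamini-Hochberg. These are 4.92-, 4.98- and 4.93-fold. For *CrOASTL2* the type effect was -0.11 (95% interval -0.75 to 0.53), with an adjusted p of 0.913 by edgeR's quasi-likelihood test. Differences of up to 0.75 in favour of X-rays or 0.53 in favour of γ-rays thus lay within the interval. Larger differences are not excluded either, since the interval does not cover the variation between repeated exposures. A type effect was called in 3 of the 4 members, all higher after γ-irradiation, beside 6.14% of all genes called higher and 3.87% called lower. With type fitted alone, without dose, *SLT1* no longer passed (log2 effect 2.47, adjusted p = 0.0579, edgeR), whereas *SLT2* and *SULTR2* did (adjusted p = 0.0320 and 0.0279, edgeR). Radiation type went together with culture volume, resuspension in TAP medium, cell density, tube and exposure time. γ-rays and these conditions, among them any difference in the medium, cannot be told apart in the libraries.

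Within each dose, the transporters were higher after γ- than after X-irradiation. At 6 Gy, the log2 ratio of GR6 to XR6 was 2.67 (2.51 to 2.83) for *SLT1*, 2.90 (2.78 to 3.03) for *SLT2* and 2.33 (2.25 to 2.41) for *SULTR2*. From the highest ratio, these took places 43, 30 and 83 of 13981 genes. At 50 Gy, the ratio of GR50 to XR50 was 1.92 (1.67 to 2.17) for *SLT1*, 1.72 (1.56 to 1.89) for *SLT2* and 2.27 (2.15 to 2.39) for *SULTR2*. The difference between the radiation types was smaller at 50 Gy than at 6 Gy for *SLT1* and *SLT2* beyond the counting error, and the intervals of *SULTR2* overlapped. Whether the type effect depends on dose was not tested, since no degree of freedom is left for it. *CrOASTL2* was slightly lower in GR6 than in XR6 (-0.38, interval -0.58 to -0.17) and slightly higher in GR50 than in XR50 (0.15, 0.03 to 0.27). More than 2-fold differences between the types at 6 Gy were found in 3 members above and 0 below, beside 7.27% and 8.15% of all genes, and at 50 Gy in 3 above and 0 below, beside 11.9% and 7.19%.

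From 6 to 50 Gy, transporters and *CrOASTL2* went in opposite directions after both radiations, which is in part the pattern that chose them. The log2 ratio of XR50 to XR6 was -1.07 (-1.35 to -0.80) for *SLT1*, -0.45 (-0.64 to -0.27) for *SLT2* and -1.01 (-1.14 to -0.88) for *SULTR2*, and it was 1.31 (1.16 to 1.47) for *CrOASTL2*. The ratio of GR50 to GR6 was -1.83 (-1.96 to -1.70) for *SLT1*, -1.64 (-1.73 to -1.55) for *SLT2*, -1.07 (-1.13 to -1.01) for *SULTR2* and 1.84 (1.67 to 2.02) for *CrOASTL2*. For *SULTR2* both dose steps had nearly the same size, whereas *SLT1*, *SLT2* and *CrOASTL2* had the larger step after γ-irradiation. For the transporters, the γ-ray step led from far above the mock to a level still above it, and the X-ray step led from near the mock to below it. *CrOASTL2* was above the mock at both ends of either step. Dose went together with exposure time and tube current after X-rays, and with the dose rate after γ-rays. Dose and these conditions cannot be told apart in the libraries. After X-rays, 1 member was more than 2-fold higher and 2 were more than 2-fold lower at 50 Gy, beside 2.71% and 3.06% of all genes. Of the 2 lower members, *SULTR2* was just past 2-fold (-1.01) and fell short of it with DESeq2 size factors (-0.99). After γ-rays, 1 was higher and 3 were lower, beside 8.98% and 3.20%. In the additive fit, the dose effect was -1.46 for *SLT1*, -1.06 for *SLT2*, -1.04 for *SULTR2* and 1.58 for *CrOASTL2*, with standard errors between 0.301 and 0.336. Over all genes, that fit called 1.84% higher and 0.0354% lower at 50 Gy at an adjusted p under 0.05.

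**Figure D3:**
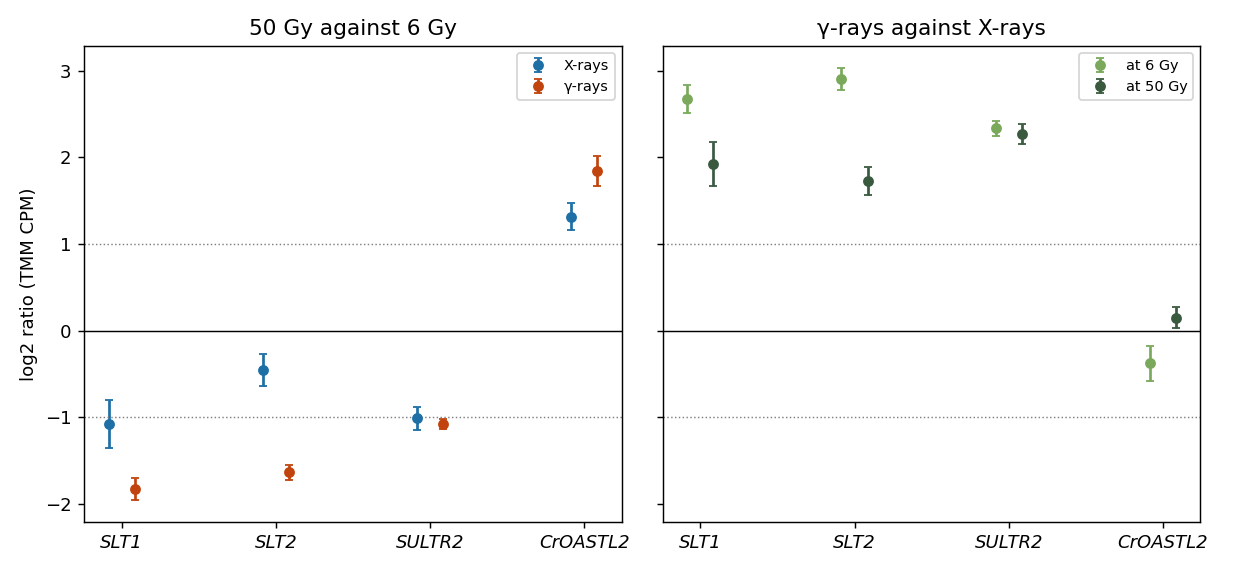
Log2 ratios between irradiated libraries for the transporters and *CrOASTL2*, with 50 Gy against 6 Gy on the left and γ-rays against X-rays on the right. Points are ratios of single libraries, bars are exact 95% intervals of the counts, and dotted lines mark 2-fold. The transporters are below 0 by dose and between 1.72 and 2.90 by type. *CrOASTL2* is at 1.31 and 1.84 by dose and close to 0 by type.

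Reads of the transporters and of *CrOASTL2* were set against each other within each library, which needs no scaling between libraries. These are transcript counts, and neither sulfate uptake nor cysteine synthesis itself was measured. Summed over the 3 genes, the transporters reached 106.8 CPM (mock), 119.3 CPM (XR6), 65.4 CPM (XR50), 692.8 CPM (GR6) and 275.2 CPM (GR50). For each 100 transporter reads there were 4.91 reads of *CrOASTL2* in the mock (3.96 to 6.04), 19.6 in XR6 (17.7 to 21.7), 88.9 in XR50 (82.0 to 96.4), 2.60 in GR6 (2.33 to 2.89) and 23.4 in GR50 (22.1 to 24.9). A single value also reflects the lengths of the transcripts, and only its course over the libraries is compared. XR50 was highest, 18.1-fold above the mock, and GR6 was lowest and the only irradiated library below the mock. XR6 and GR50 lay close together, at 3.99- and 4.77-fold the value of the mock, although their intervals did not overlap. They reached it from different levels, as the transporters summed to 1.12-fold and *CrOASTL2* to 4.45-fold the mock in XR6, against 2.58-fold and 12.3-fold in GR50. From 6 to 50 Gy, this proportion was 4.54-fold higher after X-rays and 9.0-fold higher after γ-rays. The direction of this dose step follows in large part from the choice of *CrOASTL2*, *SLT1* and *SULTR2* by dose. It is therefore a description and no separate result.

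**Figure D4:**
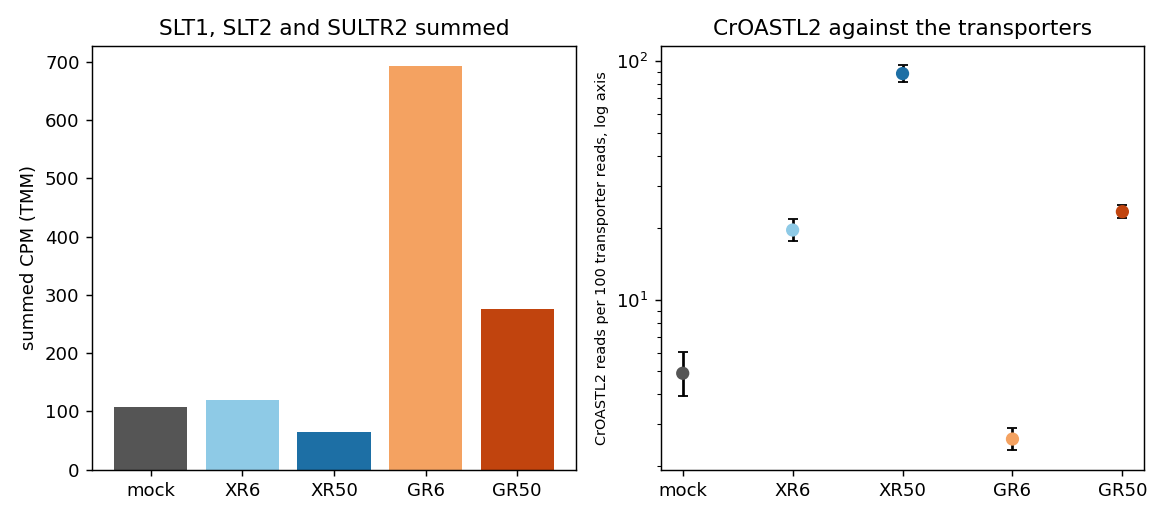
Left, summed CPM of *SLT1*, *SLT2* and *SULTR2* in each library, as bars from 0. Right, reads of *CrOASTL2* per 100 transporter reads in the same library on a log axis, with exact 95% intervals. GR6 has the tallest bar (692.8 CPM) and the lowest proportion (2.60), and XR50 has the shortest bar (65.4 CPM) and the highest proportion (88.9).

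The makeup of the transporter reads varied little compared with their sum. *SLT1* supplied between 11.6% and 16.9% of them, *SLT2* between 23.5% and 31.3% and *SULTR2* between 53.2% and 63.9%. In the mock and GR6, whose sums differed 6.49-fold, the shares of *SLT1* were 16.9% and 16.3%, those of *SLT2* 29.8% and 30.3%, and those of *SULTR2* 53.2% and 53.4%. *SULTR2* had its larger shares in GR50 (63.9%) and XR6 (61.6%).

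The likeness of the patterns was measured as the root mean square distance between log2 CPM values, each centred on the mean of its gene, over the 5 libraries. The comparison covered 10763 other genes that averaged 50 or more counts and had no library at 0. These distances rest on 5 single libraries and describe them, and the members were listed together beforehand. *SLT1*, *SULTR2* and *CrOASTL2* were chosen by their dose pattern in the irradiated libraries. How near or far these genes lie from one another follows in part from that choice. The gene closest to *SLT1* was *SLT2* (distance 0.22), followed by *SULTR2* (0.29). The converse did not hold, because genes outside the list lay closer to the other carriers. Seen from *SLT2*, *SLT1* took place 2 and *SULTR2* place 4 (0.27), and seen from *SULTR2*, *SLT2* took place 4 and *SLT1* place 7. *CrOASTL2* was at a distance of 1.96 from *SLT1*, place 10542. The 2 genes outside the list closest to *SLT1* were CHLRE_17g723400v5 (0.30) and CHLRE_03g174400v5 (0.31), for which the reference table gives no name. CHLRE_03g174400v5 (chromosome 3, 4263655 to 4266596) was counted 184 times in the mock, 147 times in XR6, 98 times in XR50, 732 times in GR6 and 253 times in GR50. The closest to *CrOASTL2* were CHLRE_08g377450v5 (0.11) and CHLRE_03g210625v5 (0.13), also without a name. CHLRE_08g377450v5 lies on chromosome 8 from 3812419 to 3827682, with 52, 232, 505, 166 and 588 counts in the order mock, XR6, XR50, GR6 and GR50. CHLRE_03g210625v5 (chromosome 3, 9047041 to 9062827) had 225, 1422, 3161, 976 and 3322 counts.

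Some genes beside the members on the chromosome had a like pattern. CHLRE_17g723400v5, which lies 216 bp from *SULTR2* (3329802 to 3333249), had counts of 1683 (mock), 1185 (XR6), 845 (XR50), 6879 (GR6) and 2490 (GR50). Its log2 ratio to the mock was 1.94 (1.87 to 2.02) in GR6, below that of *SULTR2*, and -0.64 (-0.75 to -0.54) in XR6, where *SULTR2* was above the mock. On its other side, *SULTR2* overlaps CHLRE_17g723300v5 by 18 bp, and this gene had between 156 and 324 counts, with 225 in GR6. CHLRE_10g445050v5, 48 bp from *SLT2* (chromosome 10, 3495903 to 3502674), had counts of 1631 (mock), 1550 (XR6), 1231 (XR50), 3273 (GR6) and 2482 (GR50). It was also highest in GR6, with a ratio of 0.92 (0.83 to 1.00), well under the 2.72 of *SLT2*. On the other side of *SLT2*, CHLRE_10g444950v5 at 2590 bp had few counts, from 10 in GR6 to 16 in XR50. The gene 68 bp from *SLT1*, CHLRE_12g502550v5 (chromosome 12, 2814007 to 2825538), had another course, with counts of 167 (mock), 348 (XR6), 404 (XR50), 202 (GR6) and 344 (GR50). CHLRE_16g664301v5, 160 bp from *CrOASTL2* (chromosome 16, 2964108 to 2980709), had counts of 30 (mock), 1750 (XR6), 2705 (XR50), 1066 (GR6) and 6702 (GR50). Its order over the libraries was that of *CrOASTL2*, with larger log2 ratios of 5.73, 6.38, 5.06 and 7.65. The gene on the other side of *CrOASTL2*, CHLRE_16g664200v5 at 55 bp, was nearly level, with 798 to 1065 counts. The libraries were prepared with a stranded kit, but the sources used here do not say whether counting used strand. Whether reads of neighbouring genes contributed to the members was not tested.

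**Figure D5:**
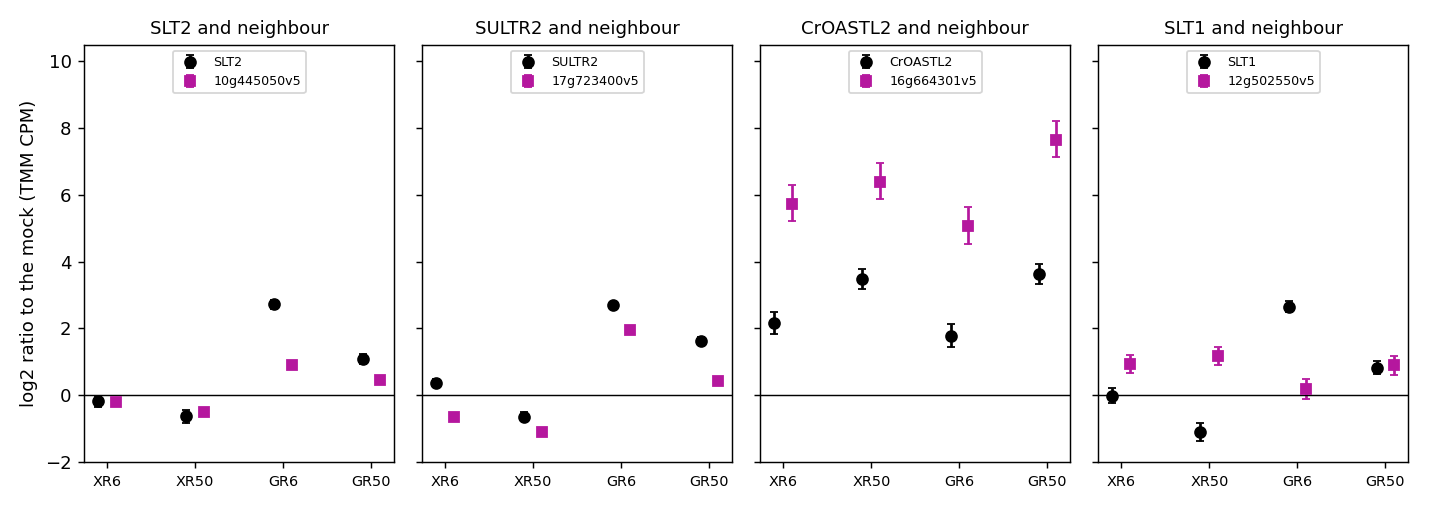
Log2 ratio to the mock in the irradiated libraries for *SLT2*, *SULTR2*, *CrOASTL2* and *SLT1* (circles) and for 1 neighbouring gene each (squares), with exact 95% intervals of the counts. The plotted neighbours of *SLT2*, *SULTR2* and *CrOASTL2* are highest and lowest in the same libraries as the member, whereas that of *SLT1* is highest in XR50 (1.16), where *SLT1* is lowest. The gene on the other side of each member is not shown.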

How the data were processed

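RNA-Seq was performed on 5 libraries, 1 per group. Per the methods, reads were cleaned (Trimmomatic 0.36), aligned to the NCBI v5.5 genome (HISAT2 2.2.1) and assigned to genes (HTSeq 0.11.3), and the authors deposited raw counts of 17742 genes. The 5 counters of unassigned reads were left out of the totals. Whether the replicates mentioned in the methods were pooled is not given in the sources used here. The strand setting of the counting is likewise not given.

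Counts were read with pandas 2.3.3, numpy 2.4.6 and scipy 1.17.1 under Python 3.11.15. TMM factors and the additive fit (glmQLFit and glmQLFTest, after filterByExpr by dose) came from edgeR 4.0.16 under R 4.3.3, with a common biological coefficient of variation of 0.242. The fit and the intervals were run on simulated counts as a check of the code. The counts for the fit held no dose effect and no interaction, and those for the intervals held counting error only. The check therefore does not show how either behaves on these single libraries. A difference was counted above 2-fold, over genes that averaged 10 or more counts and had at least 1 count in both libraries. No ratio is given where both counts were at most 3. DESeq2 1.42.0 served as an alternative.

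The members were chosen with earlier results of these data known. All 6 were named, along with genes beside them and, for *SLT1* and *CrOASTL2*, the 2 genes of closest pattern. All 17742 locus tags matched the RefSeq v5.5 table, which gave 0 symbols or descriptions. A wider list of sulfur genes and relatives by protein sequence had been planned and could not be formed, and no sequences were used here.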

Additional observations from a re-analysis of the deposited data

Results flagged for a closer look

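*CrOASTL2* was flagged because its difference between the radiation types had opposite signs at the 2 doses. The log2 ratio was -0.38 for GR6 against XR6 (exact 95% interval -0.58 to -0.17) and 0.15 for GR50 against XR50 (0.03 to 0.27). From the highest ratio, these were places 10014 of 13981 and 5966 of 13982 genes, not near an end of the ranking. Each side rests on 1 library, the intervals cover counting error only, and the difference between the doses was not tested.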

How the results depend on the processing

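No paired analysis was possible because each group held 1 library, and for the same reason no replicate could be left out. Single log2 ratios were recomputed 172 times, with library totals, DESeq2 size factors, a prior count of 1 or libraries thinned to the smallest total. Of these, 167 stayed within the counting interval, and 5 moved beyond it, all with library totals, which shifted ratios by 0.21 in XR6 and 0.11 in GR6. *SLT2* in XR6 turned from -0.19 to 0.021. The other 4 were of *SULTR2*. The type effect of *CrOASTL2* was 0.019 instead of -0.11 with type fitted alone. DESeq2 size factors left 1 transporter instead of 2 more than 2-fold lower in XR50 than in XR6. At a 1.5-fold threshold, 3 transporters instead of 1 were below the mock in XR50. At a 4-fold threshold, 0 members were below the mock in XR50, 1 instead of 3 was above it in GR50, 0 passed in either direction by dose after either radiation, and 1 instead of 3 was higher in GR50 than in XR50. Counting all 6 members with at least 1 count in both libraries, an alternative chosen after seeing the data, brought in the arylsulfatases at 1 to 9 counts. Then 1 member was below the mock in XR6 and 2 in GR50, 2 were higher in XR50 than in XR6, 5 were lower in GR50 than in GR6, 5 were higher in GR6 than in XR6 and 2 were lower in GR50 than in XR50. The type effect was called in 3 members in all alternatives other than type fitted alone, which called 2. With library totals, the adjusted p-values of edgeR's quasi-likelihood test were larger than in the main setting. They were 9.55e-05 for *SLT1*, 7.25e-05 for *SLT2* and 1.72e-05 for *SULTR2*. Over all genes, 1412 were called in the main setting, 965 with library totals, 809 with the Wald test of DESeq2, 531 with type fitted alone, 1411 with a mean of at least 10 counts and 1347 with at least 1 count in any library. Alternatives for relatives of the members were not run, as no list could be formed. At the depth of these libraries, the arylsulfatase counts allow only large differences to be seen.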
